A study of Mus musculus with 4 samples.

Results

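The thrombospondins and the CCN proteins are secreted matricellular proteins, and 10 of their genes were followed here by symbol in the authors' deposited table of 36814 gene rows. The thrombospondins were Thbs1, Thbs2, Thbs3, Thbs4 and Comp, and the CCN genes were Ctgf, Cyr61, Nov, Wisp1 and Wisp2, which later nomenclature calls Ccn2, Ccn1, Ccn3, Ccn4 and Ccn5. The table came from RNA sequencing of mouse heart ventricles at postnatal day 14, taken after removal of the atria. The 2 Hnrnpu mutants, 1 male and 1 female, were bred from mice with a conditional Hnrnpu allele and Ckmm-Cre transgenic mice, and the 2 controls, 1 male and 1 female, were wild type. Both groups had a mixed C57BL/6 and 129 S4 background. Ckmm-Cre uses the muscle creatine kinase promoter, which is active in cardiac and skeletal muscle fibres, so the fibroblasts, vessels and blood cells of the ventricle are outside its known range. The labels do not say which mice were littermates. The table gives 1 value per group, so levels below are the authors' group values in RPKM (read number scaled to transcript length in kilobases and to the mapped reads) with no spread between animals.

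Matricellular proteins sit in the extracellular matrix without being its main scaffold, and they bind matrix proteins, growth factors and cell surface receptors. Thrombospondins are calcium-binding multimers. Thbs1 and Thbs2 form the subgroup with type 1 repeats, and Thbs3, Thbs4 and Comp form the subgroup without them. CCN proteins share an insulin-like growth factor binding domain, a von Willebrand type C domain and a thrombospondin type 1 repeat, and most end in a cystine knot domain that Wisp2 lacks. In the heart several of these genes are known to respond to pressure load, to stretch and to transforming growth factor beta, and Ctgf and Cyr61 are widely used as readouts of the YAP and TAZ coactivators, which bind DNA through TEAD factors.

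Hnrnpu, the targeted gene, was listed at 15.2 RPKM in mutant and 32.7 RPKM in control ventricles. That is -1.10 on the log2 scale, with p = 0.0613 and adjusted p = 0.438 in the authors' deposited table. It did not pass the threshold used throughout, an adjusted p below 0.05. Depth is not stated in the sources used here. The deposited values of small RNA genes moved in steps that, if RPKM was scaled by mapped reads, put 2.44 times as many reads in the mutant group as in the control group.

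In mutant ventricles 5 of the 10 members rose and 0 fell. Over all 24454 rows tested, 2.03% rose and 1.48% fell in the authors' deposited table, 3.51% in all. Among the 11292 tested rows with a mean of at least 1 RPKM, a level that the 10 members reached, 5.28% were called and 3.35% rose. An unadjusted p under 0.05 was found for 7 members, beside 12.6% of tested rows. The members that rose were Wisp2, Thbs4, Ctgf, Cyr61 and Comp. Of the other 5, Thbs1, Thbs2, Thbs3 and Wisp1 were listed above control and Nov below it. The median log2 fold change of the 10 members was 1.64, beside 0.07 for all tested rows.

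**Figure D1:**
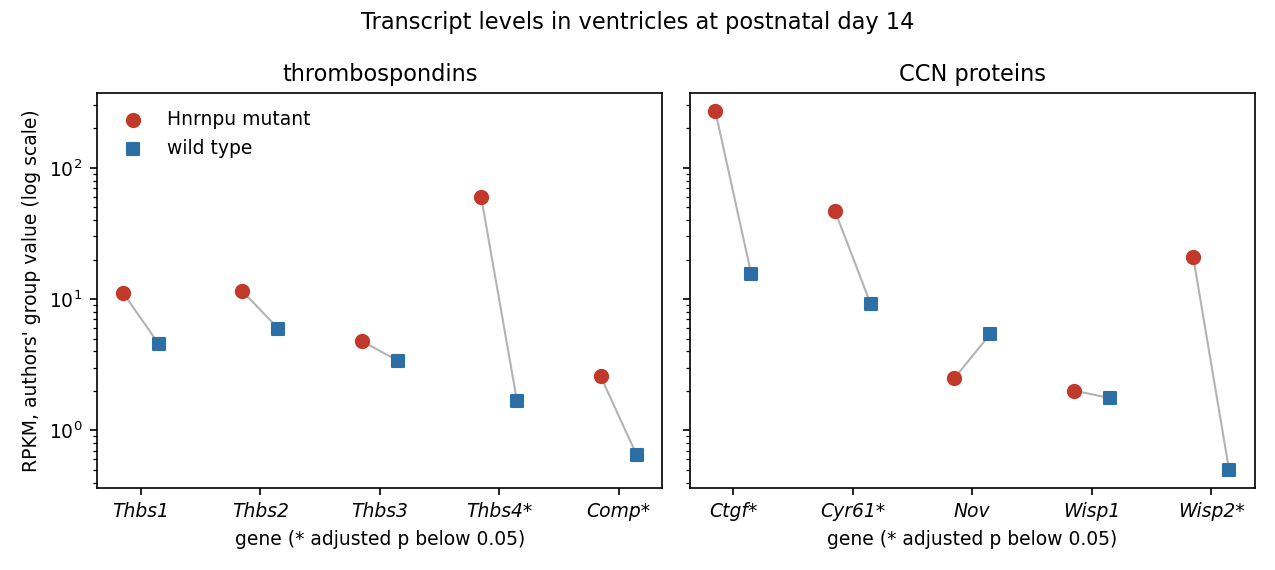
RPKM of each gene on a log axis, with the mutant group value as a circle to the left and the wild type group value as a square to the right, joined by a line; each point is 1 value by the authors for 2 mice and has no error bar. The steepest lines belong to Wisp2, Thbs4 and Ctgf, and Nov has the line that slopes the other way.

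Thbs4, a thrombospondin known in mouse for its induction in the loaded heart and for binding Atf6 inside the endoplasmic reticulum, had the widest change of its family. It was listed at 59.5 RPKM in mutant and 1.66 RPKM in control ventricles. The authors' deposited table gives this as 35.8-fold, with p = 1.55e-16 and adjusted p = 2.9e-13. On the log2 scale the change was 5.16 ± 0.63 (standard error implied by the deposited p), with an implied 95% interval from 3.94 to 6.39. That interval lay above those of the other thrombospondins, although the difference between members was not tested. By p, Thbs4 was number 13 of the 24454 tested rows. In mm9 the gene spans 93521545 to 93564773 of chromosome 13, minus strand.

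Comp, cartilage oligomeric matrix protein, is the thrombospondin of cartilage and tendon and belongs to the same subgroup as Thbs4. It was listed at 2.57 RPKM in mutant and 0.652 RPKM in control ventricles, the lowest levels of the family in each group. The authors' deposited table gives 3.94-fold with adjusted p = 0.0361, close to the threshold. Its log2 change was 1.98 ± 0.61 (implied standard error), with an interval from 0.79 to 3.17. Comp lies on the plus strand of chromosome 8, from 72897447 to 72905964 (mm9).

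Thbs1, which activates latent transforming growth factor beta and inhibits the growth of vessels, was listed at 11.2 RPKM in mutant and 4.55 RPKM in control ventricles. Its deposited p was 0.0109 and its adjusted p 0.167 in the authors' deposited table, so it was not called, although its implied interval on the log2 scale, from 0.30 to 2.30, did not reach 0. Thbs2, which shares its type 1 repeats and likewise limits vessel growth, was listed at 11.5 RPKM in mutant and 5.96 RPKM in control ventricles. The authors' deposited table gives it an adjusted p of 0.456, and its interval ran from -0.06 to 1.96. Thbs3, of the subgroup of Thbs4, was listed at 4.78 RPKM in mutant and 3.40 RPKM in control ventricles. It had an adjusted p of 0.888 in the authors' deposited table and an interval from -0.53 to 1.52. These intervals overlap one another and that of Comp, so the order of Comp, Thbs1, Thbs2 and Thbs3 by size of change was within the error. A change as large as that of Thbs4 lies outside each of them.

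**Figure D2:**
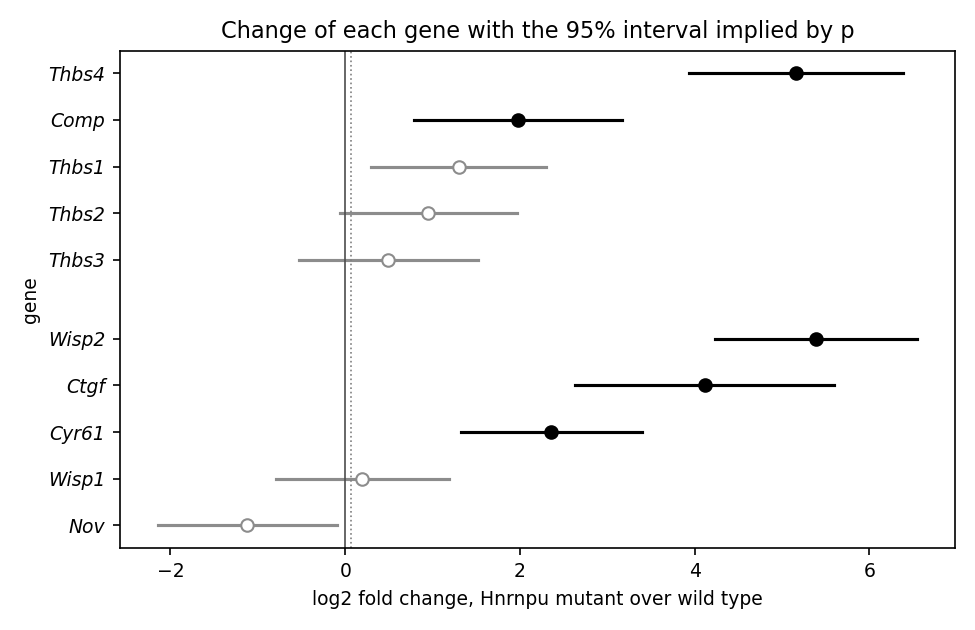
Log2 fold change of each gene, mutant over wild type, with the 95% interval implied by the deposited p as a horizontal line; filled points passed an adjusted p of 0.05, the dotted line is the median of all tested rows at 0.07, and thrombospondins stand above CCN genes. Thbs4, Wisp2 and Ctgf have intervals that begin above 2 on this scale.

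Among the CCN genes the change was widest for Wisp2, the member without the cystine knot domain, which is known in mouse as an antagonist of Ctgf in cardiac fibrosis. It was listed at 20.9 RPKM in mutant and 0.499 RPKM in control ventricles, the lowest control level of the 10 members. The authors' deposited table gives 41.8-fold, with p = 7.38e-20 and adjusted p = 2.26e-16, number 8 of the tested rows by p. The log2 change was 5.39 ± 0.59 (implied standard error), with an interval from 4.23 to 6.54. With 1 RPKM added to both values it was 3.87, since the control level lies below that constant. Wisp2 lies on the plus strand of chromosome 2, from 163646597 to 163658882 (mm9), and in the GENCODE M21 gene models its coding sequence has 251 codons, against 348 to 379 in the other CCN genes.

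Ctgf, connective tissue growth factor, a cofactor of transforming growth factor beta in fibrosis, was the most abundant member in both groups. It was listed at 269 RPKM in mutant and 15.5 RPKM in control ventricles. The authors' deposited table gives 17.3-fold with adjusted p = 1.08e-05. Its log2 change was 4.12 ± 0.76 (implied standard error), and its interval, from 2.63 to 5.60, was the widest of the 10 and overlapped that of Wisp2. Ctgf lies on the plus strand of chromosome 10, from 24315248 to 24318489 (mm9).

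The long non-coding RNA gene Gm15270 overlaps Ctgf by 1667 bases on the minus strand, and it was listed at 29.3 RPKM in mutant and 1.62 RPKM in control ventricles. The authors' deposited table gives it 18.1-fold with adjusted p = 8.71e-11. The use of strand is not given in the sources used here, so reads from the bases that Ctgf and Gm15270 share cannot be told apart. In the GENCODE M21 gene models on GRCm38, 541 of the 2398 bases of the Ctgf transcript lie in exons of Gm15270, which is 22.6% of Ctgf and 26.4% of the 2053 exonic bases of Gm15270. With these lengths, RPKM times length for Gm15270 came to 9.33% of that for Ctgf in mutant and 8.95% in control ventricles. The shared bases fall in exon 1 of Ctgf and in exon 4, the exon that encodes the thrombospondin type 1 repeat.

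Cyr61, an immediate early gene whose protein binds integrins and promotes adhesion and vessel growth, was listed at 47.1 RPKM in mutant and 9.17 RPKM in control ventricles. The authors' deposited table gives 5.13-fold with adjusted p = 0.000858. Its log2 change was 2.36 ± 0.53 (implied standard error), with an interval from 1.32 to 3.40 that overlapped that of Ctgf and lay below that of Wisp2. In mm9 it spans 145309935 to 145312949 of chromosome 3, minus strand.

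Nov, a CCN protein that binds Notch1 and is known to counter Ctgf in several cell types, was listed at 2.49 RPKM in mutant and 5.41 RPKM in control ventricles. It was the member below control. Its log2 change was -1.12, with p = 0.0320 and adjusted p = 0.315 in the authors' deposited table, so it was not called, and its implied interval ran from -2.14 to -0.10. Wisp1, a CCN gene known as a target of Wnt signalling, was listed at 2.01 RPKM in mutant and 1.76 RPKM in control ventricles. Its adjusted p was 1 in the authors' deposited table and its interval ran from -0.79 to 1.19. The intervals of Nov and Wisp1 overlapped each other and lay below those of Cyr61, Ctgf and Wisp2. The remaining CCN gene, Wisp3, is no member here and was listed at 0.0311 RPKM in mutant and 0.0383 RPKM in control ventricles.

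The promoters of 4 members, Thbs2, Thbs3, Thbs4 and Cyr61, could be read from RefSeq (GRCm38.p6), and those of Thbs1, Comp, Ctgf, Nov, Wisp1 and Wisp2 were not analysed here. They are shown because they are the 4 that matched in the RefSeq table, and they were not picked for how their genes moved. Each is given 5′ to 3′ on the strand of its gene, as the 250 bases before the annotated start. Capitals mark CATTCC, the core that TEAD factors bind, searched on both strands. The windows are chr13:92794819-92795068 (minus) for Thbs4, chr3:145649986-145650235 (minus) for Cyr61, chr17:14694263-14694512 (minus) for Thbs2 and chr3:89214930-89215179 (plus) for Thbs3.
Thbs4: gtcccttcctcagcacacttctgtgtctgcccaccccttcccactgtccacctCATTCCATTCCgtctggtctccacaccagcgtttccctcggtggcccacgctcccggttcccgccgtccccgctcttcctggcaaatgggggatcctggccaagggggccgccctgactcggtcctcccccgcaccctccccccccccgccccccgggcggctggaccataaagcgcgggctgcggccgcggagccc
Cyr61: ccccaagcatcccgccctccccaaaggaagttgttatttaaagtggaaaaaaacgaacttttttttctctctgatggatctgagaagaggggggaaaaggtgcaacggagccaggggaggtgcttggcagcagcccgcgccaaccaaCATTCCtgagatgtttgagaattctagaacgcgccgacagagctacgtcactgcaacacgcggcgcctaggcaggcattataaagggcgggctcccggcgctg
Thbs2: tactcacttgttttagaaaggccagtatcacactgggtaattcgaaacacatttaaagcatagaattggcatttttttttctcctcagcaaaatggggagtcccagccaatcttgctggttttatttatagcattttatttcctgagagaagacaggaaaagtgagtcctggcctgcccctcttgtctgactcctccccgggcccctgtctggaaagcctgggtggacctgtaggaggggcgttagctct
Thbs3: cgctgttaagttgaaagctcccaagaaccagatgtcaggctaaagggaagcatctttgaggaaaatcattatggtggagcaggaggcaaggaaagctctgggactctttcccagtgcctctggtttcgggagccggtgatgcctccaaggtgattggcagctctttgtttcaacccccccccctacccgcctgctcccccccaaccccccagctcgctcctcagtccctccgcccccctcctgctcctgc

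The Thbs4 window holds CATTCC 2 times, with first bases at -197 and -192 from the start, so that the matches share 1 base. The Cyr61 window holds it 1 time, at -103, and the Thbs2 and Thbs3 windows hold no match. Of all 32851 RefSeq promoter windows of this length, 12.6% hold at least 1 match and 1.02% hold 2 or more. The other motifs were also searched on both strands, and positions give the leftmost base as printed. CAGAC, the core of SMAD binding, occurs on the opposite strand, printed as gtctg. Its matches lie in the Thbs4 window at -226 and -186 and in the Thbs2 window at -66 and -43, and 42.2% of all windows hold it. The Cyr61 window has a match to TGACGT, the core of cyclic AMP response elements, at -59 on the opposite strand, printed as acgtca. Of all windows 6.47% hold TGACGT on either strand. TATAAA occurs in the Cyr61 window at -25 on the strand of the gene, and 12.4% of windows hold it on either strand. In the Thbs2 window it occurs at -126 on the opposite strand, printed as tttata. Neither TGANTCA, the AP-1 element, nor the CArG box of serum response factor was matched in the 4 windows, and 6.75% and 1.47% of all windows hold them. These matches describe the letters of the windows, and binding was not measured.

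The make-up of each family differed between the groups. The 5 thrombospondins summed to 89.6 RPKM in mutant and 16.2 RPKM in control ventricles, a ratio of 5.52. Thbs4 was 66.4% of that sum in mutant and 10.2% in control ventricles, where Thbs2 led with 36.7%. Without Thbs4 the sums were 30.1 RPKM in mutant and 14.6 RPKM in control ventricles, a ratio of 2.06. The 5 CCN genes summed to 341.5 RPKM in mutant and 32.3 RPKM in control ventricles, a ratio of 10.6. Ctgf made up 78.8% of it in mutant and 47.9% in control ventricles, and Nov made up 0.729% in mutant and 16.7% in control ventricles. Wisp2 held 6.12% of the CCN sum in mutant and 1.54% in control ventricles. No error can be given for these shares, since each rests on 1 value per group.

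**Figure D3:**
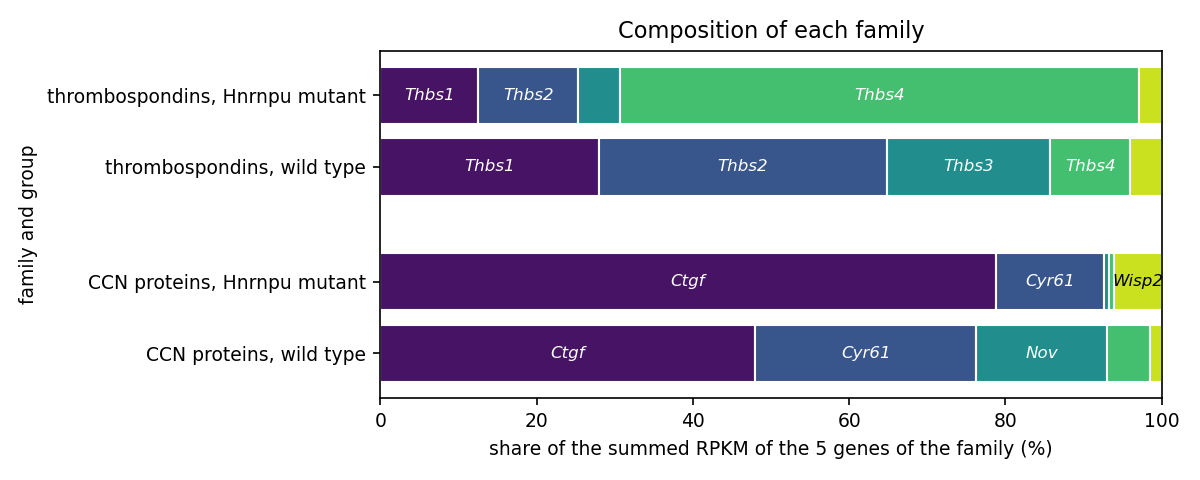
Share of each gene in the summed RPKM of its family, as stacked bars that run from Thbs1 to Comp (upper pair) and from Ctgf to Wisp2 (lower pair), with the mutant bar above the wild type bar. Thbs4 takes 66.4% of the thrombospondin bar in mutant and 10.2% in wild type, and Ctgf takes 78.8% of the CCN bar in mutant and 47.9% in wild type.

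By level, the order in mutant ventricles was Ctgf, Thbs4, Cyr61, Wisp2, Thbs2, Thbs1, Thbs3, Comp, Nov and Wisp1, and in control ventricles it was Ctgf, Cyr61, Thbs2, Nov, Thbs1, Thbs3, Wisp1, Thbs4, Comp and Wisp2. Thbs4 stood at place 2 in mutant and place 8 in control ventricles, and Wisp2 at place 4 in mutant and place 10 in control ventricles. Which neighbours in these orders differ beyond the spread between animals could not be given with 1 value per group. Among the 11292 tested rows with a mean of at least 1 RPKM, Wisp2 and Thbs4 were number 20 and number 21 by fold, Ctgf number 46, Cyr61 number 156 and Comp number 257. The smallest fold that was called in either direction was 3.03. Thbs1, at 2.46-fold, lay below that size.

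**Figure D4:**
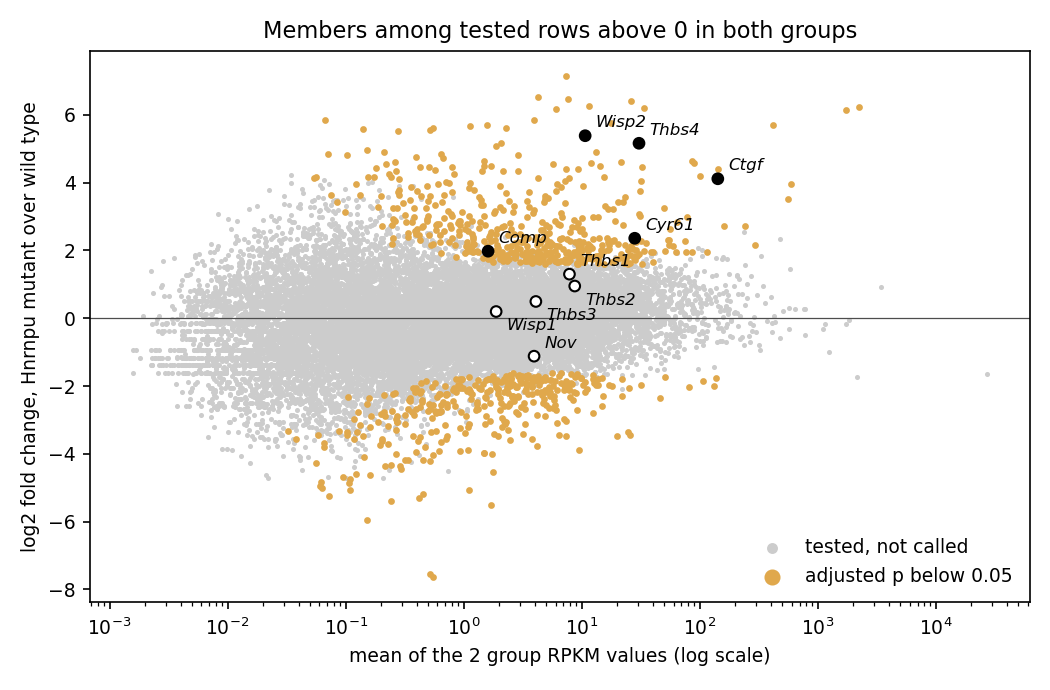
Log2 fold change against the mean of both group RPKM values (log axis) for tested rows above 0 in both groups, in grey where not called and in orange where the adjusted p was below 0.05. Black points are the 5 members that rose and white points the 5 that did not pass the test, which lie in the grey band.

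Nearby genes were read within 50 kb of each member. Of 12 tested rows near the 5 members that rose, 1 was called, Gm15270. Near the members that were not called, 0 of 17 tested rows were called. Over all tested rows 3.51% were called. Mtx3, which lies beside Thbs4 on the other strand, was listed at 0.899 RPKM in mutant and 2.46 RPKM in control ventricles (adjusted p = 0.129 in the authors' deposited table). Crtc1, beside Comp, was listed at 1.37 RPKM in mutant and 1.77 RPKM in control ventricles. Enpp1, which makes pyrophosphate and lies beside Ctgf, was listed at 1.35 RPKM in mutant and 0.537 RPKM in control ventricles (adjusted p = 0.172 in the authors' deposited table). Reads could also be shared between members and other genes with like sequence. Runs of 36 bases from the main transcript were found in no other gene of GENCODE M21 for Thbs2, Thbs4, Comp, Cyr61, Wisp1 and Wisp2. Such shared runs made up 20.1% of Ctgf, all of them with Gm15270, 5.58% of Thbs3, with its neighbour Mtx1, and at most 2.10% of Thbs1 and Nov.

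Markers of ventricular cell types fixed as lists were set beside these results. In bulk tissue, more cells of a type and more RNA per cell cannot be told apart. Over all tested rows 3.51% were called and 12.6% had an unadjusted p under 0.05. In marker lists this short, here and below, 0 calls or 1 call says little about a cell type. Of 8 cardiomyocyte markers 7 were below control, with a median log2 fold change of -0.57, 0 calls and 1 at an unadjusted p under 0.05. That was Ryr2, the calcium release channel, at 16.3 RPKM in mutant and 52.2 RPKM in control ventricles (p = 0.0461 in the authors' deposited table). Their sum was 8143 RPKM in mutant and 7485 RPKM in control ventricles, but 3613 RPKM in mutant and 5105 RPKM in control ventricles without Actc1, cardiac actin. Of 8 fibroblast markers 4 were above and 4 below control, with 0 calls, a median of 0.42 and sums of 677 RPKM in mutant and 582 RPKM in control ventricles. Without Dcn, the most abundant of them, the sums were 427 RPKM in mutant and 304 RPKM in control ventricles. An unadjusted p under 0.05 was listed for 2 of them, Tcf21 and Pdgfra. Tcf21, a transcription factor, was listed at 24.0 RPKM in mutant and 8.47 RPKM in control ventricles (adjusted p = 0.0677 in the authors' deposited table). Pdgfra was listed at 11.6 RPKM in mutant and 5.32 RPKM in control ventricles (adjusted p = 0.3005 in the authors' deposited table). Lum, lumican, a collagen-binding proteoglycan, was listed at 39.9 RPKM in mutant and 62.9 RPKM in control ventricles. All 7 macrophage markers were above control, with a median of 1.14, 1 call and 4 with an unadjusted p under 0.05. The called marker was Lyz2, a lysozyme, at 4.93-fold in the authors' deposited table, and the list summed to 192 RPKM in mutant and 62.5 RPKM in control ventricles, or 102 RPKM in mutant and 44.1 RPKM in control ventricles without Lyz2. Of 7 smooth muscle and pericyte markers 5 were above control, with 1 call, Tagln, an actin-binding protein, at 4.36-fold in the authors' deposited table, and 3 at an unadjusted p under 0.05. They summed to 928 RPKM in mutant and 268 RPKM in control ventricles. Without Acta2, smooth muscle actin, the sums were 126 RPKM in mutant and 110.3 RPKM in control ventricles. Of 10 markers of tendon and cartilage, the tissues known for Comp and Thbs4, 7 were above control, 1 was called and 4 had an unadjusted p under 0.05. Fmod, fibromodulin, another collagen-binding proteoglycan, rose 10.5-fold in the authors' deposited table, and Matn3 was listed at 0 in control. The list summed to 24.5 RPKM in mutant and 6.15 RPKM in control ventricles, a ratio of 3.99, and without Fmod to 11.3 RPKM in mutant and 4.90 RPKM in control ventricles, a ratio of 2.31. The sums without the most abundant marker, here and for the marker lists below, were added after the data were seen.

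Platelets store Thbs1, and their markers summed to 12.8 RPKM in mutant and 10.7 RPKM in control ventricles, with 5 of 6 above control, 0 called and 0 at an unadjusted p under 0.05. Without Pf4, the most abundant of them, the sums were 5.49 RPKM in mutant and 3.53 RPKM in control ventricles. Of 6 endothelial markers 4 were below control, with a median log2 fold change of -0.42 and sums of 100.5 RPKM in mutant and 106 RPKM in control ventricles. The 1 that was called moved the other way, Vwf, von Willebrand factor, at 5.07-fold in the authors' deposited table. Without Pecam1, the endothelial marker with the highest mutant level, the sums were 68.1 RPKM in mutant and 86.3 RPKM in control ventricles. Epicardial markers summed to 3.69 RPKM in mutant and 3.65 RPKM in control ventricles, with 0 of 5 called, and without Tbx18, a transcription factor, to 1.81 RPKM in mutant and 2.14 RPKM in control ventricles. Upk1b, a uroplakin, was the 1 with an unadjusted p under 0.05, at 0.0203 in the authors' deposited table, and it was listed above control. Markers of fast skeletal muscle summed to 0.392 RPKM in mutant and 0.377 RPKM in control ventricles, with 0 of 5 called and 0 at an unadjusted p under 0.05. Without Mylpf, a myosin light chain, they summed to 0.162 RPKM in mutant and 0.0896 RPKM in control ventricles. Atrial markers summed to 26.2 RPKM in mutant and 38.6 RPKM in control ventricles, with 0 of 3 called. Without Myl7 the atrial sums were 8.51 RPKM in mutant and 10.7 RPKM in control ventricles. Sln, sarcolipin, was the 1 with an unadjusted p under 0.05, at 0.00386 in the authors' deposited table, and it was listed below control. The part of cell makeup in the members' changes was not tested.

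Of 21 receptors and binding partners of both families, 2 rose and 0 fell, which is 9.52% called. That stands beside 3.51% of all tested rows and 5.28% of those averaging at least 1 RPKM. The median log2 fold change of the list was 0.42, beside 0.07 for all tested rows. Itgb5, an integrin chain that pairs with the alpha v chain, was listed at 31.2 RPKM in mutant and 6.33 RPKM in control ventricles (4.92-fold, adjusted p = 0.00154 in the authors' deposited table). Sdc4, a heparan sulfate proteoglycan that acts as a coreceptor, was listed at 7.69 RPKM in mutant and 2.10 RPKM in control ventricles (adjusted p = 0.0154 in the authors' deposited table). Cd36 and Cd47, receptors of Thbs1 named here after their values were seen, were not called. Cd36 was listed at 114 RPKM in mutant and 91.0 RPKM in control ventricles, and Cd47 at 7.94 RPKM in mutant and 8.92 RPKM in control ventricles.

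Other matricellular genes rose in 4 of 15 cases and fell in none, with a median log2 fold change of 1.09. Called genes made up 26.7% of the list, beside 3.51% of all tested rows and 5.28% of those averaging at least 1 RPKM. Cilp, a matricellular protein of cartilage and heart, rose to 62.3 RPKM in mutant, against 2.84 RPKM in control ventricles. Smoc1, a calcium-binding relative of Sparc, stood at 4.85 RPKM in mutant and 0.490 RPKM in control ventricles, Spp1, osteopontin, at 4.28 RPKM in mutant and 0.329 RPKM in control ventricles, and Fbln5, an assembly protein of elastic fibres, at 18.6 RPKM in mutant and 4.06 RPKM in control ventricles. These 4 passed with adjusted p from 1.41e-09 (Cilp) to 0.00316 (Fbln5) in the authors' deposited table.

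Other proteins with thrombospondin type 1 repeats, among them the ADAMTS proteases, did not move in a common direction. Of 46 genes, 5 rose, 3 fell and 38 did not pass the test, and the median log2 fold change was -0.17. Called genes made up 17.4% of the list, beside 3.51% of all tested rows and 5.28% of those averaging at least 1 RPKM. Adamts20 was listed at 1.05 RPKM in mutant and 0.104 RPKM in control ventricles, Adamtsl2, which binds fibrillin and latent transforming growth factor beta binding protein, at 38.6 RPKM in mutant and 5.78 RPKM in control ventricles, and Thsd7a, a membrane protein, at 1.75 RPKM in mutant and 0.365 RPKM in control ventricles. Adamts7, a protease known to cleave Comp, fell to 1.20 RPKM in mutant, against 5.36 RPKM in control ventricles (a fold of 0.224, adjusted p = 0.00287 in the authors' deposited table). Comp and Adamts7 were thus both called, in opposite directions.

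Genes upstream of YAP and TAZ and other targets of both were counted apart. Of 20 Hippo pathway, TEAD and serum response factor genes in the table, out of 22 listed, 2 rose and none fell. Their median log2 fold change was 0.16. Of them 10% were called, beside 3.51% of all tested rows and 5.28% of those averaging at least 1 RPKM. The 2 were Vgll3, a TEAD cofactor, at 3.25 RPKM in mutant and 0.380 RPKM in control ventricles, and Amot, angiomotin, which binds YAP, at 2 RPKM in mutant and 0.444 RPKM in control ventricles. Of 20 known YAP and TAZ targets besides Ctgf and Cyr61, 4 rose and 0 fell, which is 20% called, with a median of 0.70. Igfbp3, a binding protein of insulin-like growth factors, stood at 17.8 RPKM in mutant and 3.18 RPKM in control ventricles. Ankrd1, a nuclear and sarcomeric stress protein of cardiomyocytes, stood at 1020 RPKM in mutant and 89.1 RPKM in control ventricles (11.5-fold, adjusted p = 0.0193 in the authors' deposited table). Nt5e, which makes adenosine, stood at 9.74 RPKM in mutant and 2.67 RPKM in control ventricles.

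Transforming growth factor beta genes rose in 5 of 18 cases and fell in none, with a median log2 fold change of 0.61. Called genes made up 27.8% of the list, beside 3.51% of all tested rows and 5.28% of those averaging at least 1 RPKM. Tgfb2 and Tgfb3, which code for ligands, were listed at 10.9 and 15.7 RPKM in mutant and at 2.18 and 3.22 RPKM in control ventricles. Ltbp2, which binds fibrillin, was listed at 13.5 RPKM in mutant and 0.820 RPKM in control ventricles. Tgfb2 is also in the list of YAP and TAZ targets.

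Folding and Atf6 genes of the endoplasmic reticulum, the compartment in which Thbs4 is known to bind Atf6 in mouse heart, gave 0 calls among 18 in the authors' deposited table and 2 with an unadjusted p under 0.05. Their median log2 fold change was 0.33, beside 0.07 for all tested rows. Over all tested rows 3.51% were called, and 5.28% of those averaging at least 1 RPKM. An unadjusted p under 0.05 was found for 12.6% of tested rows. Atf6 itself had the smallest p of that list, at 6.87 RPKM in mutant and 2.81 RPKM in control ventricles (p = 0.0108, adjusted p = 0.167 in the authors' deposited table). The rise of Thbs4 was called and none of these 18 genes was, although 15 of them were listed above control and 3 below. A count of 0 calls among 18 genes lies near the share over all rows. The list was not tested as a whole, and its difference from Thbs4 was not tested.

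**Figure D5:**
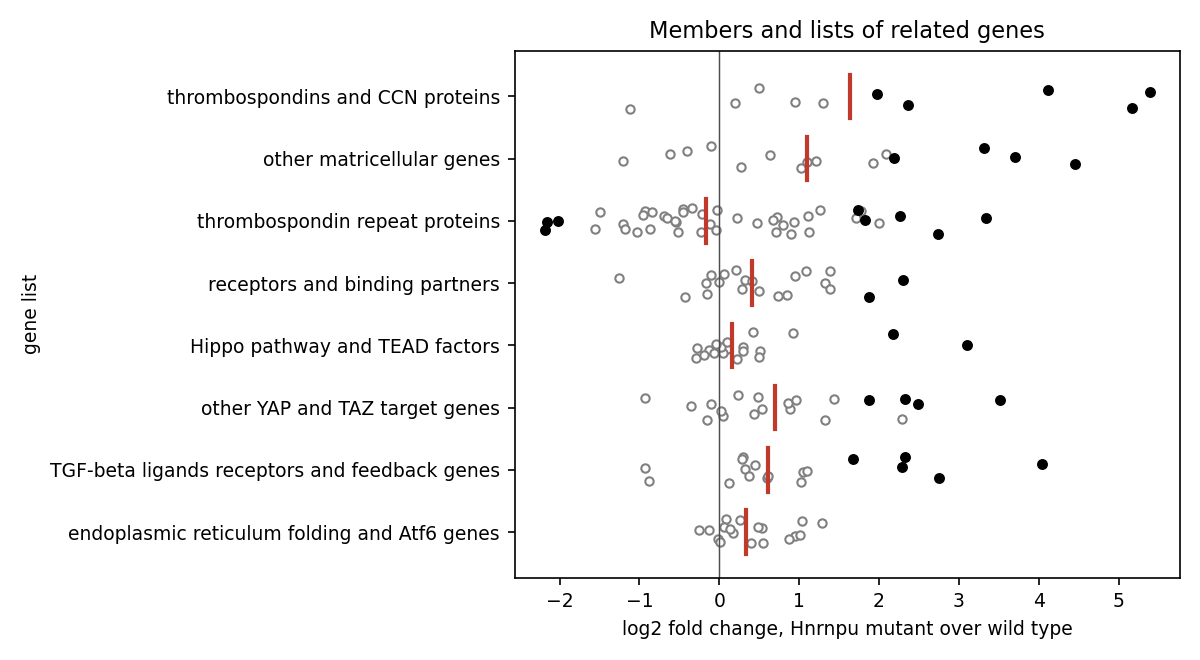
Log2 fold change of each gene, mutant over wild type, by list, with called genes as black points, other genes as open points, the median of each list as a red bar, and a random vertical offset; genes listed at 0 in a group have no point but count in the median. The members have a median of 1.64, and the list of thrombospondin repeat proteins has called genes on both sides of 0.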

How the data were processed

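RNA from the ventricles of 2 Hnrnpu mutant and 2 wild type mice was sequenced, 1 sample per mouse. Per the file headers, the authors deposited 1 RPKM value per group and gene. The fold (ratio) of mutant over control, its log2 value, the p-value and the adjusted p-value were also made by the authors, per the file headers. Bowtie 0.12.9, DESeq and the build mm9 appear in the submitters' processing notes with no role; the read counter, annotation and strand setting were not given in the sources used here.

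Members were matched by symbol, keeping the row with the highest mean RPKM where a symbol repeats. A gene was called at a deposited adjusted p below 0.05. The 12360 rows at 0 in both groups had no test. The deposited adjusted p-values were within 0.593% of Benjamini-Hochberg values computed here over 24454 tested rows. Standard errors and 95% intervals were derived from the deposited fold and p under a normal approximation, with scipy 1.17.1. The arithmetic was checked on data simulated from the same normal model. That check cannot show whether the approximation holds for the deposited p-values, which was not tested. No count per animal was analysed here, so no test could be fitted anew.

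Medians of lists include genes listed at 0 in a group at the extremes. All members were named, and of each list the called genes, up to 4 by p, or else the gene with the smallest p; 1 gene that this rule names is not reported here. The members, lists and tests were chosen with earlier results of these data known. Promoters came from RefSeq (GRCm38.p6), and gene models and shared runs of 36 bases from GENCODE M21 (GRCm38); coordinates of the 2 builds were not combined. Alternatives tried were pseudocounts of 0.1 and 1, centring on the median, adjustment over rows with a mean of at least 1 RPKM, other thresholds and the choice of repeated rows.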

Additional observations from a re-analysis of the deposited data

How the results depend on the processing

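The count of 5 members that rose was 5 with Benjamini-Hochberg adjustment over rows with a mean of at least 1 RPKM, 5 at an adjusted p below 0.1, 5 with the lowest row of a repeated symbol, and 4 at an adjusted p below 0.01, where Comp was lost. Adjusted over the rows with a mean of at least 1 RPKM, the list of thrombospondin repeat proteins gave 7 calls in place of 8, and the counts of the other 6 lists did not move. With pseudocounts of 0.1 and 1 and after centring on the median, Nov was below control and the other 9 members were above it each time. Directions could not have changed here, so they were not tested. A constant added to both values keeps their order, and centring moved each change by 0.08, less than the smallest, 0.20 for Wisp1. Of these 30 recomputed changes, 29 lay inside the gene's implied interval. The exception was Wisp2 with a pseudocount of 1, at 3.87 on the log2 scale. Centring and the pseudocount of 0.1 moved each change by far less than the reach of its interval. Staying inside was therefore no test for those settings. No paired analysis was possible because the table holds 1 value per group and none per sample. Leaving out each replicate was not run for the same reason, so a result that rests on 1 mouse could not be found. Depth per sample is not given in the sources used here. By the step sizes, with the group value taken as the mean of its libraries and GENCODE lengths as a stand-in for the authors', the control value of Wisp2 would rest on about 46.4 reads and that of Comp on about 85.2, against 2011 for Ctgf.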
